A study of Apera spica-venti with 32 samples.

Results

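Transcripts of the circadian clock and of light signalling were followed in a cereal-field weed, the grass Apera spica-venti, in leaves with and without a pinoxaden spray. Pinoxaden blocks acetyl-CoA carboxylase, the enzyme that starts fatty acid synthesis. The count table held 39590 open reading frames (here features) of assembled transcript contigs, and 22 of them were members because their description named a clock or light gene: PRR37, PRR59, PRR73, PRR95, PRR1, pseudo-response, GIGANTEA, LHY, CCA1, REVEILLE, EARLY FLOWERING, LUX, adagio, cryptochrome, phytochrome, phototropin, CONSTANS or B-box zinc finger. Of these words, PRR37, PRR59, PRR1, pseudo-response, CCA1, REVEILLE and adagio matched no description, and LUX matched only inside the word efflux, in MATE efflux family protein 4. That transporter is counted among the 22 and kept out of every group below, which leaves 21 clock and light features on 17 contigs. All 22 passed the filter on low counts, as did 25036 features in all.

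Plants fell into 8 groups of 4 libraries, and each library pooled 3 plants at the early leaf stage (BBCH 12 to 13). Plants of the resistant populations R2 and R1 and of the susceptible populations S2 and S1 had received a single pinoxaden dose (45 g active ingredient per ha) and were harvested 8 h later, and untreated plants of the same 4 populations were the controls. Resistant means resistant to multiple herbicides, with no mechanism given in the labels, and all plants grew in a greenhouse at 21 °C. The hour of spraying, the light period and the harvest hour of the untreated plants are not given in the sources used here, so spraying and time of day cannot be told apart in any comparison of sprayed with untreated leaves.

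The plant clock is a loop of transcription factors that repress one another in a daily sequence. LHY, a MYB repressor, is expressed around dawn, pseudo-response regulators follow one after another through the day and repress the dawn genes, and GIGANTEA and EARLY FLOWERING 3 belong to the later part of the day and the evening. Phytochromes (red and far-red light), cryptochromes and phototropins (both blue light) are the photoreceptors, cryptochromes and phytochromes set the clock, and CONSTANS and other B-box zinc finger proteins carry light and clock signals to flowering and seedling development.

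Only features that the authors listed at an adjusted p under 0.05 in at least 1 of 4 comparisons carry a description, which is 7967 of the 39590. Those comparisons were the spray responses of resistant and of susceptible plants and resistant against susceptible plants, sprayed and untreated, and they therefore chose the members. In these comparisons, and in the difference between the class responses built from them, the members' values are given as a description: a call, a p or a count of calls there says where the fit placed a feature that these same comparisons had admitted, and is no test of the clock and light genes. Differences between the 2 populations of a class, which the listing did not compare, were tested. The listing used the same libraries, and whether these differences entered its spread is not given in the sources used here. In the authors' deposited table, 7 of the 22 features were listed for the resistant spray response, 17 for the susceptible spray response, 4 for untreated resistant against susceptible plants and 0 for sprayed resistant against susceptible plants. The members closest to the listing limit were CONSTANS-LIKE 8 and LHY, whose smallest adjusted p in the authors' deposited table was 0.0429 and 0.0255.

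Libraries held 26213780 to 46062806 counts, and the 10 most abundant features took 60.5 to 69.6% of them. Green leaf transcripts, 43 described features of photosystems, chlorophyll-binding proteins and ribulose bisphosphate carboxylase, made up 59.1 to 68.2% of counts in every library, and none of the 43 was at 0. The first sprayed S1 library stood apart for PRR95 and was the highest of its 4 libraries for 11 of the 21 features, against 26.2% of all tested features. The second sprayed S1 library was the lowest of the same 4 for 12 of the 21, against 23.6% of all tested features, and the highest for 0. The first untreated R1 library was the lowest of its 4 for 14 of the 21, against 31.2% of all tested features.

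PRR95 had the largest drop of any clock transcript between untreated and sprayed leaves, and PRR73 was lower as well. LHY and the gigantea-like transcript were not called in either class in the main fit. For LHY in susceptible plants that depended on the processing, as 10 of 23 alternatives called it. Levels are in CPM, each feature's share of the library's counts scaled by TMM factors, and a change is a log2 fold change ± the standard error (SE) of an edgeR quasi-likelihood fit over all 32 libraries, sprayed over untreated or resistant over susceptible. A feature is said to be called when its adjusted p is under 0.05. In whole leaves, fewer cells of a type and less RNA per cell cannot be told apart. In resistant plants, 6 of the 21 features were called in the spray response, 2 higher and 4 lower. The share called among all tested features was 9.14% (5.63% higher, 3.51% lower). In susceptible plants, 17 of the 21 were called, 2 higher and 15 lower, and the share among all tested features was 25.4% (13.5% higher, 11.8% lower). Listing in these comparisons admitted the members and raises their share of calls, so nothing is read from the difference. The median change of the 21 features was -0.19 in resistant and -0.44 in susceptible plants, beside -0.01 over all tested features in each class.

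LHY (TRINITY_DN3732_c0_g1_i9.p1), the dawn repressor, had 11, 8.9, 8.14 and 8.81 CPM in sprayed R2 leaves, 8.17, 12.6, 11.1 and 10.3 CPM in sprayed R1, 10.2, 13.3, 10.1 and 11.5 CPM in sprayed S2, and 14.6, 10.6, 11.4 and 15.6 CPM in sprayed S1. Untreated leaves had 11.2, 12.1, 9.0 and 10.8 CPM in R2, 10.4, 15.4, 11.7 and 10.6 CPM in R1, 13.9, 16, 15.2 and 15.3 CPM in S2, and 15, 15.2, 13.7 and 12.6 CPM in S1. Sprayed and untreated libraries overlapped in R2, R1 and S1, and the 4 sprayed S2 libraries lay below the 4 untreated ones. The change was -0.21 ± 0.10 in resistant plants and -0.27 ± 0.10 in susceptible plants, neither of them called in the main fit. Over 23 alternatives LHY was called lower in 10 in susceptible plants, DESeq2 and the replicate block among them, and in 0 in resistant plants. With libraries scaled by their totals alone the value for susceptible plants was 0.05, where the median of all features was 0.30.

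PRR95 (TRINITY_DN1306_c0_g1_i3.p1), a pseudo-response regulator of the daytime in rice, had 16.9, 17.9, 12.7 and 12.9 CPM in sprayed R2 leaves, 12.0, 11.9, 11.2 and 11.2 CPM in sprayed R1, 13.9, 18.2, 12.5 and 15.3 CPM in sprayed S2, and 42.7, 12.6, 13.2 and 16.1 CPM in sprayed S1. Untreated leaves had 26.2, 30.1, 23.7 and 27.5 CPM in R2, 21.7, 27.6, 28.0 and 20.9 CPM in R1, 34.8, 28.1, 33.8 and 25.1 CPM in S2, and 50.0, 45.2, 39.6 and 42.0 CPM in S1. Of the 16 sprayed libraries, 15 lay below every untreated library, and the first sprayed S1 library, at 42.7 CPM, lay among the untreated S1 libraries. The change was -0.96 ± 0.17 in resistant plants and -1.04 ± 0.17 in susceptible plants, a fold of 0.515 and 0.485. Without the first sprayed S1 library the change in susceptible plants was -1.36. By population it was -0.83 ± 0.24 in R2, -1.08 ± 0.25 in R1, -1.02 ± 0.25 in S2 and -1.06 ± 0.24 in S1.

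PRR73, another pseudo-response regulator, was represented by 2 reading frames of 1 contig. The more abundant one (TRINITY_DN872_c1_g1_i15.p1) had 19.8, 19.6, 21.6 and 19.0 CPM in sprayed R2 leaves, 15.3, 14.3, 14.9 and 15 CPM in sprayed R1, 15.4, 16.4, 19.9 and 14.7 CPM in sprayed S2, and 19.7, 14.2, 16.7 and 15.3 CPM in sprayed S1. Untreated leaves had 19.4, 28.7, 24.3 and 27.5 CPM in R2, 19.6, 21.7, 20.9 and 20.4 CPM in R1, 23.1, 27.4, 32.5 and 19.6 CPM in S2, and 28.1, 26.9, 30.5 and 21.9 CPM in S1. Sprayed libraries lay below untreated ones without overlap in R1 and S1, and overlapped by 1 library in S2. In R2, sprayed libraries at 19.0 to 21.6 CPM overlapped untreated ones at 19.4 to 28.7 CPM. The change was -0.39 ± 0.10 in resistant and -0.66 ± 0.10 in susceptible plants, and for the other reading frame (TRINITY_DN872_c1_g1_i15.p2) it was -0.43 ± 0.10 and -0.61 ± 0.10 in the same order of classes. These frames lie on the same contig, so they are not independent measurements.

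The gigantea-like transcript (TRINITY_DN764_c0_g1_i154.p1), whose Arabidopsis counterpart acts in the clock and in photoperiodic flowering, had 86.7, 82.0, 64.4 and 62.7 CPM in sprayed R2 leaves, 66.5, 75.5, 77.6 and 58.7 CPM in sprayed R1, 84.3, 78.5, 66.9 and 72.0 CPM in sprayed S2, and 108, 72.6, 69.8 and 82.5 CPM in sprayed S1. Untreated leaves had 55.7, 67.5, 64.0 and 79.3 CPM in R2, 54.0, 65.6, 68.6 and 55.8 CPM in R1, 76.2, 86.9, 88.2 and 69.4 CPM in S2, and 89.0, 79.9, 76.2 and 81.3 CPM in S1. Sprayed and untreated libraries overlapped in all 4 populations. The change was 0.17 ± 0.10 in resistant and -0.03 ± 0.10 in susceptible plants, and neither was called. With library totals alone the value in susceptible plants was 0.28 and was called higher, close to the median of 0.30 over all features. Early flowering 3 (TRINITY_DN9465_c0_g1_i3.p1), a subunit of the evening complex that represses daytime clock genes in Arabidopsis, averaged 27.8 ± 3.13 CPM in sprayed and 29.1 ± 3.23 CPM in untreated resistant leaves, and 25.4 ± 3.02 CPM in sprayed and 32.5 ± 2.70 CPM in untreated susceptible leaves (SD, n = 8 each). Its change was -0.06 ± 0.08 in resistant and -0.36 ± 0.08 in susceptible plants, called only in susceptible plants, and with library totals alone that value was -0.05 and was not called. Sprayed libraries lay below untreated ones without overlap in S2 and S1 and overlapped them in R2 and R1.

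**Figure D1:**
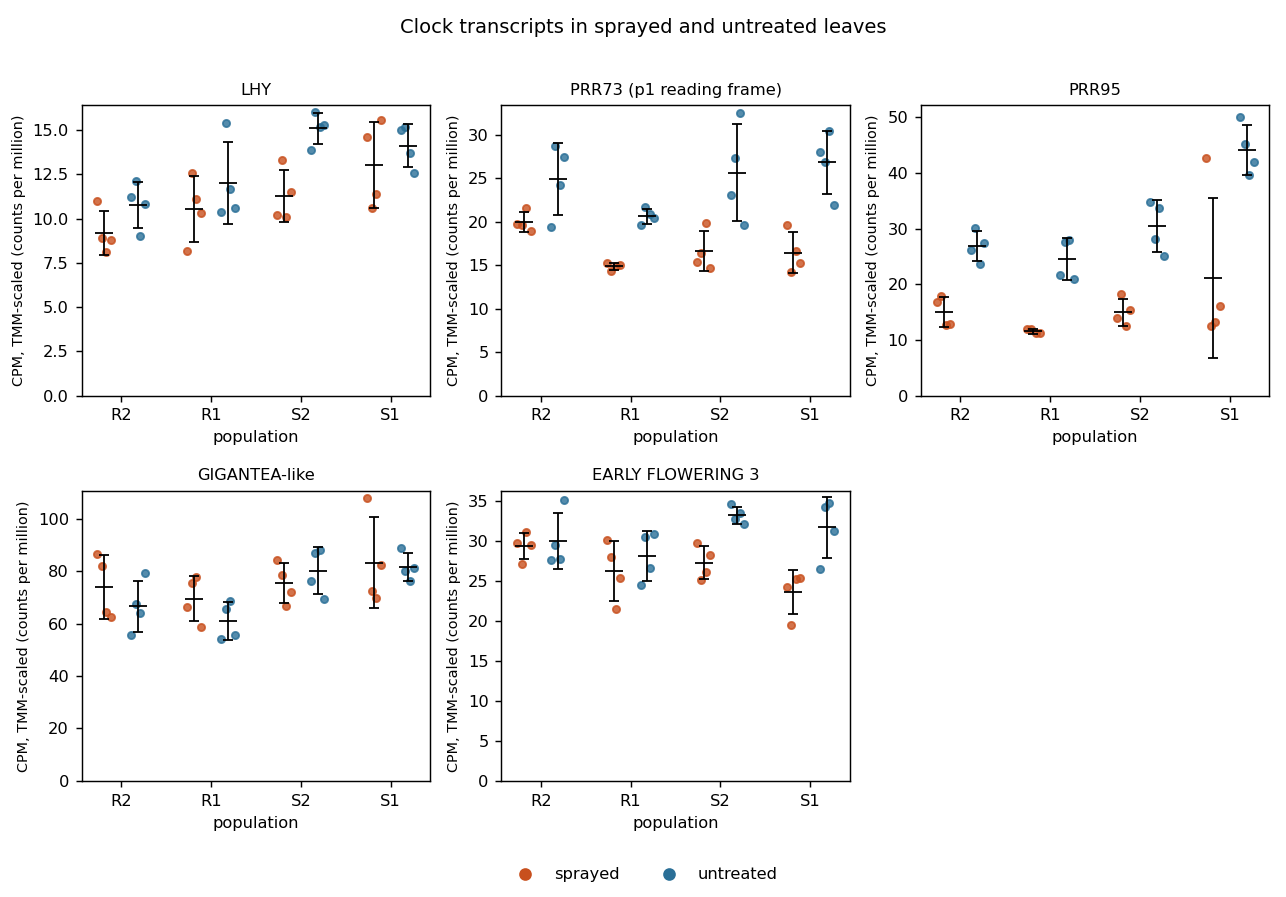
Levels of 5 clock transcripts (CPM with TMM scaling, vertical axes from 0) in sprayed and untreated leaves of the populations R2, R1, S2 and S1. Points are libraries, and bars are the mean ± SD of 4. PRR95 separates 15 of 16 sprayed libraries from all untreated ones, while the gigantea-like transcript overlaps in every population.

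Clock transcripts were also set against one another within each library, as the log2 level of one minus that of another. These pairs restate the changes given above on a scale shared by 1 library and are no separate evidence, since all except LHY minus GIGANTEA were chosen after the values were seen. Such a difference does not depend on library scaling beyond the prior count, and its absolute size carries the lengths of the features, so only libraries are compared. PRR95 minus GIGANTEA averaged -2.34 ± 0.32 in sprayed leaves and -1.23 ± 0.25 in untreated leaves (SD, n = 16 each). Of the 16 sprayed libraries 15 lay below every untreated library, at -2.78 to -2.10 against -1.63 to -0.82, and the first sprayed S1 library was at -1.34. PRR73 minus GIGANTEA averaged -2.15 ± 0.28 in sprayed and -1.56 ± 0.18 in untreated leaves, and 13 of 16 sprayed libraries lay below every untreated one. The 3 sprayed libraries that were not below all untreated ones were 2 of R2 and 1 of S2.

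LHY set against GIGANTEA separated fewer libraries. LHY minus GIGANTEA averaged -2.78 ± 0.22 in sprayed and -2.47 ± 0.21 in untreated leaves, a difference of -0.31, and 6 of 16 sprayed libraries lay below every untreated one. PRR95 minus LHY averaged 0.44 ± 0.40 in sprayed and 1.25 ± 0.31 in untreated leaves, and 14 of 16 sprayed libraries lay below every untreated one. Early flowering 3 minus GIGANTEA averaged -1.5 ± 0.31 in sprayed and -1.22 ± 0.20 in untreated leaves, with 3 of 16 sprayed libraries below all untreated ones.

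**Figure D2:**
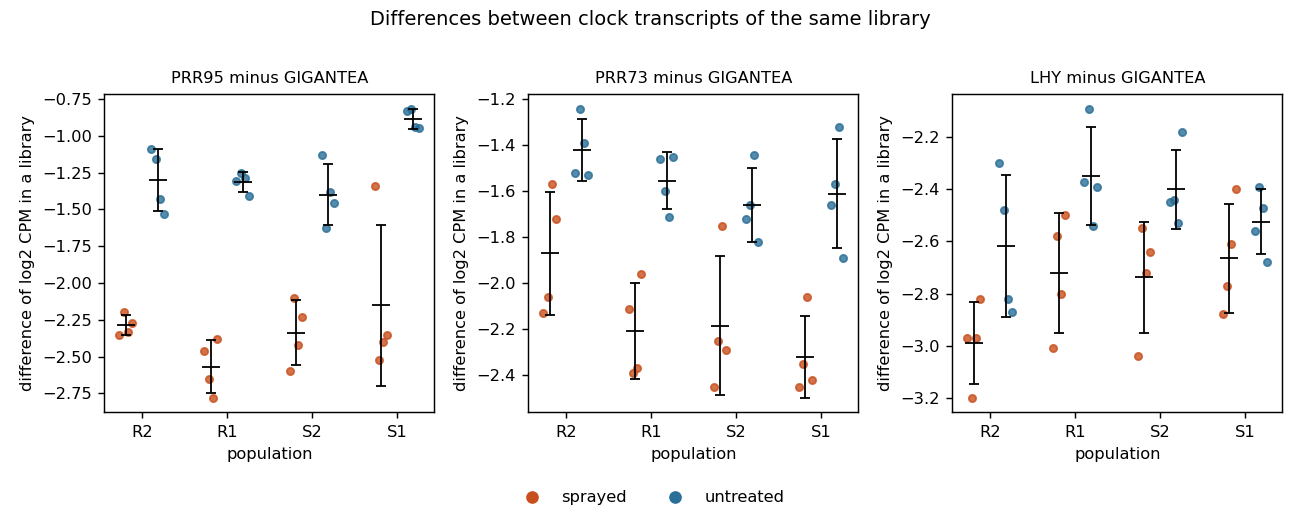
Differences between log2 CPM of clock transcripts within each library (vertical axes, log2 scale, not starting at 0, with a different range in each panel) for sprayed and untreated leaves of R2, R1, S2 and S1. Points are libraries and bars are the mean ± SD of 4. For PRR95 minus GIGANTEA, 15 of 16 sprayed libraries lie below every untreated library, and for LHY minus GIGANTEA 6 of 16 do.

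All 7 photoreceptor features, on 4 contigs, had lower values in sprayed than in untreated leaves of both classes. Of these, 1 was called lower in resistant plants (3.51% of all tested features were) and 7 in susceptible plants (11.8% were). Nothing is read from these counts, as the authors listed all 7 as lower in the susceptible spray response, which made them members. Their changes ran from -0.35 to -0.07 in resistant plants and from -0.74 to -0.23 in susceptible plants. In susceptible plants all 7 were below 0 with TMM scaling, whereas with library totals alone only the 2 phototropin-like frames were called. The phytochrome C frames p1 and p4 were then at -0.13 and -0.34, and the cryptochrome-1 frames at -0.03 (TRINITY_DN58_c0_g1_i20.p1), -0.14 (TRINITY_DN58_c0_g2_i1.p2) and 0.08 (TRINITY_DN58_c0_g2_i1.p1), with the median of all features at 0.30.

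The phototropin-like transcript (TRINITY_DN329_c0_g1_i35.p1), a blue-light receptor kinase that steers growth toward light and moves chloroplasts, had 77.7, 75.1, 77.8 and 71.7 CPM in sprayed R2 leaves, 74.9, 70.6, 68.7 and 67.1 CPM in sprayed R1, 80.7, 76.1, 82.1 and 78.3 CPM in sprayed S2, and 60.9, 48.8, 58.1 and 59.4 CPM in sprayed S1. Untreated leaves had 104, 93.6, 88.8 and 108 CPM in R2, 69.0, 100, 97.7 and 84.8 CPM in R1, 118, 95.6, 118 and 113 CPM in S2, and 134, 104, 100 and 116 CPM in S1. Sprayed libraries lay below untreated ones without overlap in R2, S2 and S1, and in R1 only the first untreated library, at 69.0 CPM, lay among the sprayed ones. The change was -0.35 ± 0.07 in resistant and -0.74 ± 0.07 in susceptible plants. A second frame of the contig (TRINITY_DN329_c0_g1_i35.p3) had a log2 fold change of -0.19 ± 0.09 and -0.68 ± 0.09 in the same order of classes.

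Phytochrome C, a red and far-red receptor needed for flowering in long days in wheat and Brachypodium, had 2 frames on 1 contig. The abundant one (TRINITY_DN1539_c0_g1_i4.p1) averaged 34.3 ± 3.27 CPM in sprayed and 39.7 ± 1.92 CPM in untreated resistant leaves, and 31.2 ± 3.22 CPM in sprayed and 42.2 ± 4.72 CPM in untreated susceptible leaves (SD, n = 8 each). Its change was -0.21 ± 0.07 in resistant and -0.44 ± 0.07 in susceptible plants, and the change of the other (TRINITY_DN1539_c0_g1_i4.p4) was -0.31 ± 0.12 and -0.65 ± 0.12 in the same order. Cryptochrome-1, the blue-light receptor of seedling development, had 3 frames on 2 contigs. Their changes were -0.07 ± 0.08 (TRINITY_DN58_c0_g1_i20.p1), -0.19 ± 0.12 (TRINITY_DN58_c0_g2_i1.p2) and -0.13 ± 0.07 (TRINITY_DN58_c0_g2_i1.p1) in resistant plants. In susceptible plants the same frames, in the same order, had a log2 fold change of -0.35 ± 0.08, -0.44 ± 0.12 and -0.23 ± 0.07.

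PHYTOCHROME KINASE SUBSTRATE 1-like (TRINITY_DN1426_c0_g1_i1.p1), named for an Arabidopsis protein that phytochrome phosphorylates and that acts in phototropism, was called lower in susceptible plants and not called in resistant plants. Sprayed resistant leaves had 4.46, 5.08 and 6.56 CPM (lowest, median and highest of 8) and untreated resistant leaves 2.85, 5.36 and 8.53 CPM. Sprayed susceptible leaves had 3.15, 4.14 and 6.09 CPM and untreated susceptible leaves 4.61, 7.37 and 12.8 CPM. The groups overlapped in both classes, and the change was -0.15 ± 0.20 in resistant and -0.93 ± 0.20 in susceptible plants.

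The 7 CONSTANS and B-box features did not share one direction. In resistant plants 2 were called higher and 0 lower (5.63% and 3.51% of all tested features were), and in susceptible plants 2 were called higher and 3 lower (13.5% and 11.8% were). Listing in these comparisons admitted most of the 7, so nothing is read from these counts. CONSTANS-LIKE 13 (TRINITY_DN19892_c0_g1_i19.p4), whose Arabidopsis namesake affects hypocotyl growth in red light, had 12.8, 9.07, 9.63 and 12.1 CPM in sprayed R2 leaves, 9.75, 13.4, 13.0 and 13.2 CPM in sprayed R1, 11.3, 10.5, 11.6 and 11.2 CPM in sprayed S2, and 19.6, 13.8, 19.1 and 10.8 CPM in sprayed S1. Untreated leaves had 6.80, 8.30, 6.71 and 8.15 CPM in R2, 5.10, 5.31, 5.40 and 4.92 CPM in R1, 5.47, 5.05, 6.06 and 4.69 CPM in S2, and 8.77, 6.24, 5.30 and 5.44 CPM in S1. All 16 sprayed libraries lay above all 16 untreated ones. The change was 0.90 ± 0.12 in resistant and 1.18 ± 0.12 in susceptible plants.

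B-box zinc finger protein 20 (TRINITY_DN91536_c0_g1_i1.p1), in Arabidopsis a cofactor of the light-signalling factor HY5, was called higher in susceptible plants and not called in resistant plants, at very low counts. It had 0.38, 0.565 and 0.925 CPM (lowest, median and highest of 8) in sprayed and 0.0418, 0.395 and 0.7 CPM in untreated resistant leaves, and 0.255, 0.665 and 0.931 CPM in sprayed and 0.0337, 0.175 and 0.576 CPM in untreated susceptible leaves. Sprayed and untreated libraries did not overlap in S2 and S1, and overlapped in R2 and R1. The change was 0.62 ± 0.36 in resistant and 1.44 ± 0.37 in susceptible plants, and the lowest untreated libraries of S2 and R2 held 1 count each.

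CONSTANS-LIKE 16 (TRINITY_DN918_c0_g2_i3.p2), a flowering repressor in rice, had 23.2, 19.1, 26.6 and 26.4 CPM in sprayed R2 leaves, 27.5, 26.5, 15.5 and 18.7 CPM in sprayed R1, 23.7, 12.7, 13.7 and 22.0 CPM in sprayed S2, and 13.6, 14.1, 16.4 and 13.6 CPM in sprayed S1. Untreated leaves had 27.8, 19.8, 20 and 28.9 CPM in R2, 16.9, 22.7, 20.5 and 23.0 CPM in R1, 33.9, 15.5, 26.3 and 29.1 CPM in S2, and 35.2, 25.7, 26.1 and 31.0 CPM in S1. Only in S1 were sprayed and untreated libraries separate. The change was 0.04 ± 0.15 in resistant and -0.79 ± 0.15 in susceptible plants.

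A CONSTANS-like protein (TRINITY_DN2392_c0_g1_i9.p1), of the family of the Arabidopsis flowering activator CONSTANS, had a log2 fold change of -0.33 ± 0.16 in resistant and -0.81 ± 0.16 in susceptible plants. CONSTANS-LIKE 9 (TRINITY_DN3216_c0_g1_i8.p1), which delays flowering in Arabidopsis, had a log2 fold change of -0.10 ± 0.10 and -0.41 ± 0.10 in the same order, and CONSTANS-LIKE 8 (TRINITY_DN2024_c0_g2_i17.p1), of the same family, had one of -0.24 ± 0.12 and -0.08 ± 0.12. B-box zinc finger protein 21 (TRINITY_DN4177_c0_g1_i17.p2), an Arabidopsis activator of seedling responses to light, is named here after its values were seen. It averaged 3.46 ± 0.53 CPM in sprayed and 2.33 ± 0.582 CPM in untreated resistant leaves, and 2.57 ± 0.818 CPM in sprayed and 3.33 ± 0.946 CPM in untreated susceptible leaves (SD, n = 8 each). Its change was 0.59 ± 0.17 in resistant and -0.37 ± 0.17 in susceptible plants, and sprayed libraries lay above untreated ones without overlap only in R2. It was called in resistant plants and not in susceptible plants. The call was lost without any 1 of 6 libraries: replicate 1 of sprayed R2 or sprayed R1, replicate 1 or 2 of untreated R2, or replicate 3 or 4 of untreated R1.

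**Figure D3:**
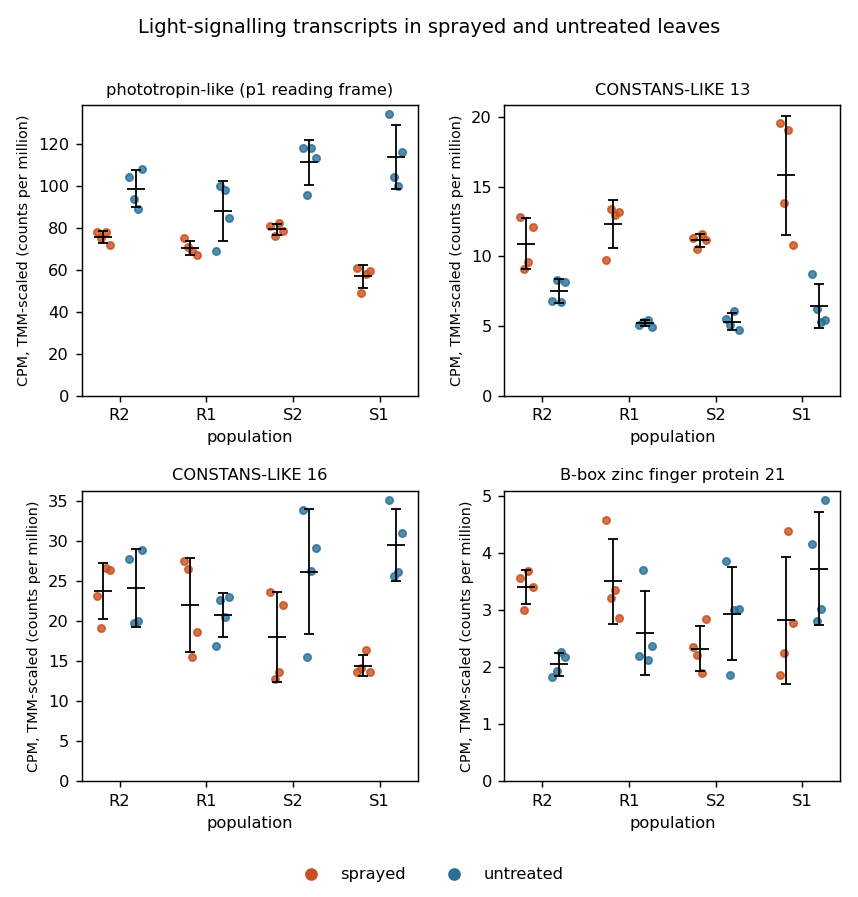
Levels of 4 light-signalling transcripts (CPM with TMM scaling, vertical axes from 0) in sprayed and untreated leaves of R2, R1, S2 and S1. Points are libraries and bars are the mean ± SD of 4. Every sprayed library lies above every untreated library for CONSTANS-LIKE 13, and the phototropin-like transcript is lower in sprayed leaves, with overlap only in R1.

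Counted by separation of single libraries, 3 of the 21 features lay lower in all 4 sprayed than in all 4 untreated libraries in R2 (3.05% of all tested features did) and 3 in R1 (4.55%), against 8 in S2 (4.59%) and 11 in S1 (9.78%). Higher without overlap were 2 features in R2 (4.5% of all tested features), 1 in R1 (6.31%), 2 in S2 (7.36%) and 2 in S1 (11.8%). CONSTANS-LIKE 13 was in the second set in all 4 populations, and PRR95 was in the first in R2, R1 and S2. Listing in the spray responses, on these same libraries, admitted most of the members and raises these counts. Nothing is read from their distance to the shares over all tested features. The count of 11 in S1 holds both frames of the PRR73, phototropin-like and phytochrome C contigs, which are not independent. The remaining member, the MATE efflux protein (TRINITY_DN10929_c0_g2_i20.p1), is not in these counts, and its change was -0.25 ± 0.09 in resistant and -0.19 ± 0.09 in susceptible plants.

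**Figure D4:**
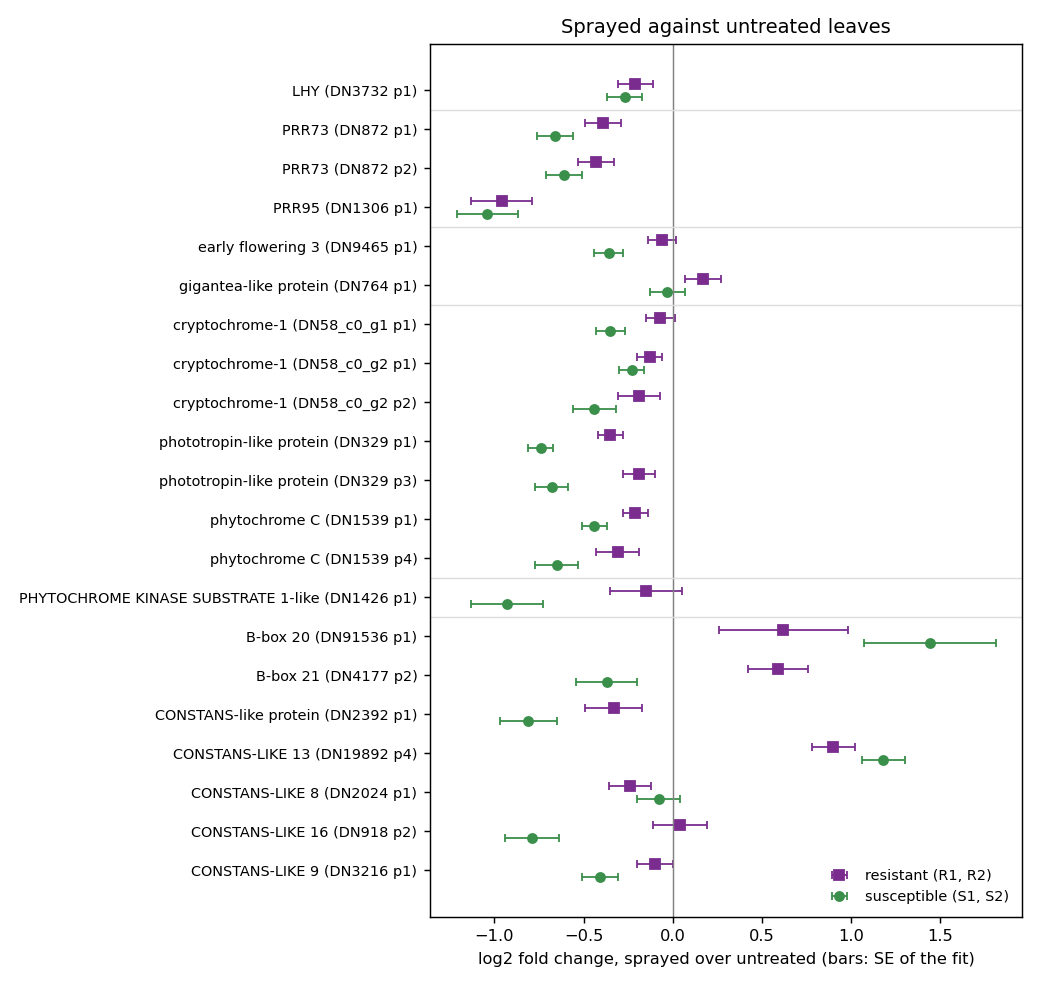
Log2 fold change of the 21 clock and light features, sprayed over untreated leaves (horizontal axis, bars are the SE of the fit), in resistant plants (squares, above) and susceptible plants (circles, below), grouped by role from dawn and pseudo-response regulators at the top to CONSTANS and B-box proteins at the bottom. Of the 21 features, 16 lie below 0 in resistant and 19 in susceptible plants.

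The resistant response minus the susceptible response was above 0 in 18 of the 21 features, with a median of 0.27 beside -0.02 over all tested features. The authors listed 17 members for the susceptible response, 15 of them as lower, and 7 for the resistant response. That admission tilts the difference above 0, so nothing is read from this count, the median or the calls. By edgeR 0 of the 21 were called (background 0.563%, with 0.387% higher and 0.176% lower), 10 had an unadjusted p under 0.05, and DESeq2 called 4. The 4 were the phototropin-like frames (0.39 ± 0.11 and 0.49 ± 0.13), B-box 21 (0.96 ± 0.24) and CONSTANS-LIKE 16 (0.82 ± 0.22). With library totals alone the median of all features was -0.31 and that of the 21 was -0.03, and 10 of the 21 were above 0. PRR95 had a difference of 0.09 ± 0.24, which was 0.40 without the first sprayed S1 library.

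In untreated leaves, 18 of the 21 features were lower in resistant than in susceptible plants, with a median of -0.25 beside 0 over all tested features. By edgeR 15 had an unadjusted p under 0.05, 14 of them lower. Most members were admitted as lower in sprayed than in untreated susceptible leaves. This comparison reuses those untreated libraries, so nothing is read from these counts or the median. Called were 3 features, all lower in resistant plants (background 4.12%, with 2.76% higher and 1.36% lower): the gigantea-like transcript at -0.34 ± 0.10, LHY at -0.36 ± 0.10 and the phototropin-like frame p1 at -0.27 ± 0.07. LHY had 9, 11 and 15.4 CPM (lowest, median and highest of 8) in untreated resistant leaves and 12.6, 15.1 and 16 CPM in untreated susceptible leaves, and the gigantea-like transcript had 54, 64.8 and 79.3 CPM in untreated resistant and 69.4, 80.6 and 89 CPM in untreated susceptible leaves. The classes overlapped for both transcripts. With library totals alone the median of all features was 0.21. LHY, the gigantea-like transcript and phototropin were then at -0.15, -0.13 and -0.06, and none of these 3 was called. Over 23 alternatives the call was lost in 11 for LHY, 13 for the gigantea-like transcript and 11 for phototropin. Leaving out 1 untreated library at a time gave 0 to 5 calls among the 21. There were 0 calls without replicate 1 or 4 of R1, replicate 2 or 3 of R2, replicate 1 of S1 or replicate 3 of S2, and 5 without replicate 4 of R2.

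In sprayed leaves the comparison of resistant with susceptible plants gave a median of 0.06 over the 21 features and -0.01 over all tested features. By edgeR 0 were called (background 2.3%, with 1.55% higher and 0.751% lower), 6 had an unadjusted p under 0.05, and DESeq2 called 1, CONSTANS-LIKE 16 at 0.51 ± 0.15 in the edgeR fit. LHY was at -0.30 ± 0.10, PRR95 at -0.43 ± 0.17 (-0.12 without the first sprayed S1 library) and the gigantea-like transcript at -0.14 ± 0.10. Both class comparisons share libraries with the spray responses, so their values are not independent of them.

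**Figure D5:**
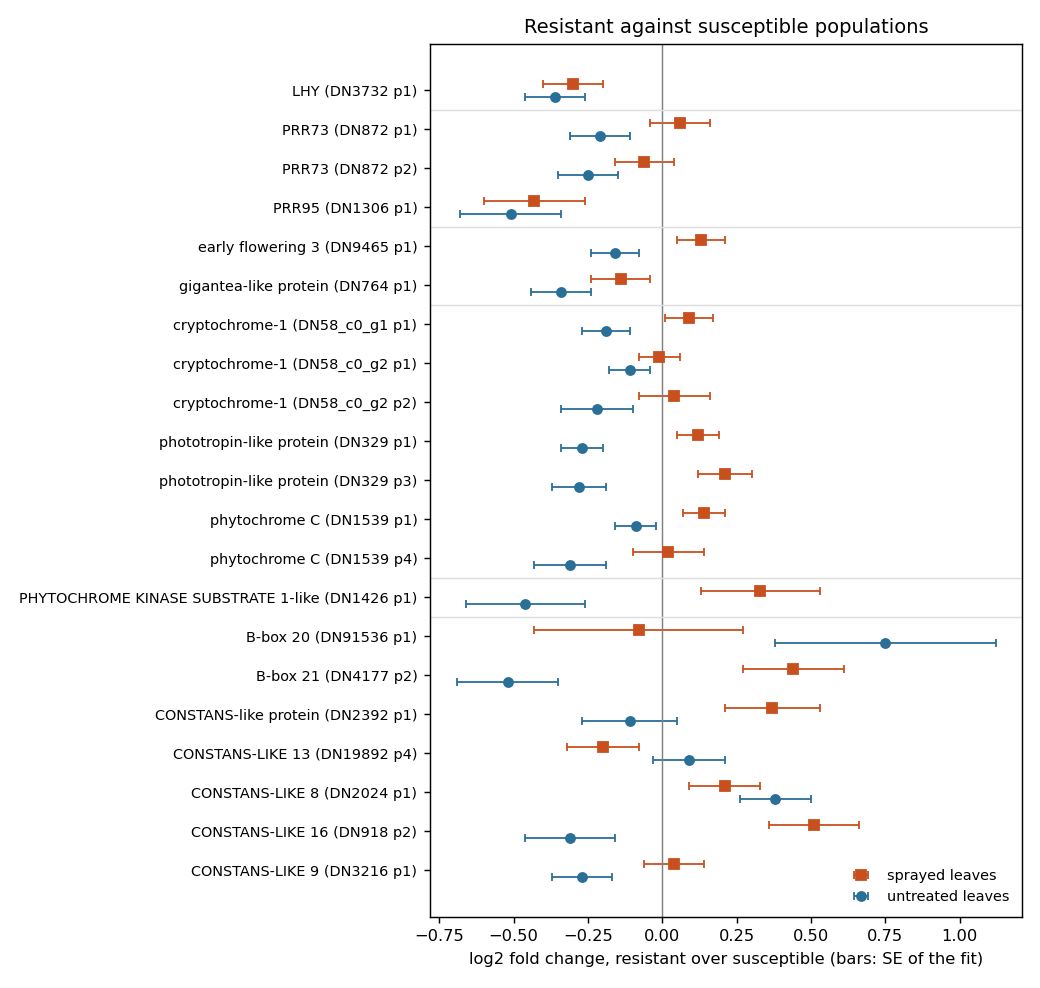
Log2 fold change of the 21 features, resistant over susceptible plants (horizontal axis, bars are the SE of the fit), in sprayed leaves (squares, above) and untreated leaves (circles, below). Of the 21 features, 14 lie above 0 in sprayed leaves and 3 in untreated leaves.

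Populations of the same class, which the listing did not compare, were tested with edgeR's quasi-likelihood test. Among sprayed susceptible plants, the phototropin-like frame p1 was 0.48 ± 0.11 higher on the log2 scale in S2 than in S1, with a fold of 1.40 and an adjusted p of 0.0221 over all 25036 features. The 4 sprayed S2 libraries had 76.1 to 82.1 CPM and the 4 sprayed S1 libraries 48.8 to 60.9 CPM, without overlap. It was the only one of the 21 called in this comparison (background 1.34%, with 0.603% higher and 0.739% lower), in which 4 had an unadjusted p under 0.05. DESeq2 called 2, the same frame and its neighbour p3, for which edgeR gave 0.50 ± 0.13 with an adjusted p of 0.0513. With library totals alone the difference of p1 was 0.31 (adjusted p = 0.105), against a median of -0.18 over all features. The edgeR call of p1 was lost without the sprayed S1 library of replicate 2 or 3 (adjusted p = 0.0947 and 0.0632) and without the sprayed S2 library of replicate 1 or 3 (adjusted p = 0.0799 and 0.0708).

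Between sprayed R2 and R1, the PRR73 frames p2 and p1 were at 0.57 ± 0.14 and 0.43 ± 0.14 in R2 relative to R1, with edgeR adjusted p of 0.0738 and 0.191. By edgeR 0 of the 21 were called in that comparison (background 0.407%, with 0.0879% higher and 0.32% lower), 2 had an unadjusted p under 0.05, and DESeq2 called 1, PRR73 p2. For PRR73 p1, sprayed R2 libraries had 19.0 to 21.6 CPM and sprayed R1 libraries 14.3 to 15.3 CPM, without overlap.

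Untreated populations of 1 class gave no calls among the clock and light features. Between untreated R2 and R1, edgeR called 0 of the 21 (background 0.0399%, with 0.024% higher and 0.016% lower), 2 had an unadjusted p under 0.05 and DESeq2 called 0. CONSTANS-LIKE 13 was at 0.53 ± 0.17 in R2 relative to R1 (95% interval 0.19 to 0.87, edgeR adjusted p = 0.387). Between untreated S2 and S1, edgeR called 0 of the 21 (background 0.00799%), 2 had an unadjusted p under 0.05 and DESeq2 called 0. PRR95 there was at -0.54 ± 0.24 in S2 relative to S1 (95% interval -1.03 to -0.04, edgeR adjusted p = 0.886), and B-box 20 at -1.60 ± 0.55 (edgeR adjusted p = 0.82).

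The spray responses of 2 populations of 1 class were also compared directly. For R2 minus R1, edgeR called 0 of the 21 (background 0.00399%), 2 had an unadjusted p under 0.05 and DESeq2 called 0, and CONSTANS-LIKE 13 was at -0.71 ± 0.23 (95% interval -1.19 to -0.23, edgeR adjusted p = 0.701). For S2 minus S1, edgeR called 0 of the 21 (background 0.028%), 2 had an unadjusted p under 0.05 and DESeq2 called 0. The phototropin-like frame p1 was at 0.52 ± 0.15 there (95% interval 0.21 to 0.82, edgeR adjusted p = 0.307), and PRR95 at 0.04 ± 0.34.

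Replicates of 1 group resembled each other closely in these transcripts. The biological coefficient of variation of the 21 features had a median of 0.148, against 0.286 over all tested features and 0.231 over features in the same range of level. LHY was at 0.147, the gigantea-like transcript at 0.145 and PRR95 at 0.242. Listing used the same libraries, so these medians are a description and were not tested.

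Other reading frames on the members' contigs did not always move with the member. How reads were divided between frames of a contig, and whether counting used the strand, is not given in the sources used here. The gigantea-like contig had 2 further frames, with changes of 0.11 ± 0.11 and 0.12 ± 0.12 in resistant and 0.13 ± 0.11 and 0.04 ± 0.12 in susceptible plants. Frame p3 of the PRR73 contig, described as a predicted protein, had a log2 fold change of 1.00 ± 0.25 in resistant and 1.39 ± 0.25 in susceptible plants, opposite to the PRR73 frames, at 893 counts over all libraries. Frame p1 of the CONSTANS-LIKE 13 contig, described as divinyl chlorophyllide a 8-vinyl-reductase, an enzyme of chlorophyll synthesis, had a log2 fold change of -0.31 ± 0.11 and -0.44 ± 0.11 in the same order of classes, opposite to CONSTANS-LIKE 13. On the LHY contig, a frame described as an uncharacterized protein was at -2.86 ± 0.33 in untreated resistant relative to untreated susceptible plants, against -0.36 ± 0.10 for LHY. On the B-box 21 contig, the frame described as a putative salt tolerance-like protein had a log2 fold change of 0.52 ± 0.16 in resistant and -0.04 ± 0.16 in susceptible plants.

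Genes around the clock and the photoreceptors were taken from word lists over the described features, which the authors' listing had also chosen. Of 34 tested features of clock output and flowering time, 4 were called higher and 12 lower in resistant plants (median -0.29), and 3 higher and 23 lower in susceptible plants (median -0.59), beside -0.01 over all features in each. Among all tested features 5.63% were called higher and 3.51% lower in resistant plants, and 13.5% and 11.8% in susceptible plants, and as listing in these comparisons admitted the features of both word lists, nothing is read from the difference. Most of the lower calls were chlorophyll a-b binding proteins, the antenna proteins of the photosystems, whose transcripts follow the clock: of 13, 9 were called lower in resistant and 13 in susceptible plants. Nuclear transcription factor Y subunits, partners of CONSTANS-type proteins, numbered 6, of which 2 were called higher and 1 lower in resistant plants and 3 lower in susceptible plants. The list caught 4 SKIP F-box proteins only through their name, which make up 2 of the higher calls in resistant plants, and 2 of the higher calls and 1 of the lower calls in susceptible plants.

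Of 21 tested light-signalling partners, 4 were called higher and 1 lower in resistant plants (median 0.20), and 11 higher and 5 lower in susceptible plants (median 0.43), with the same shares over all features as above. Subunits of the COP9 signalosome, which works with the repressor COP1 to hold back light responses, made up 6 of them: 0 were called in resistant plants and 5 were called higher in susceptible plants, with changes of 0.14 to 0.36 in resistant and 0.46 to 0.76 in susceptible plants. SUPPRESSOR OF PHYA-105 1, a partner of COP1, had a log2 fold change of -0.15 ± 0.07 in resistant and -0.26 ± 0.07 in susceptible plants. The list caught sulfhydryl oxidase 1, called lower in both classes, through a fragment of a word. The word cullin caught 4 features, which make up 2 of the higher calls in resistant and 3 in susceptible plants. In resistant plants these 2 are frames of 1 cullin-1 contig. An early light-inducible protein, called higher in susceptible plants only, averaged 0.116 CPM.

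Described features of other tissues took small shares of counts. Only features the authors listed carry a description, so these word lists are partial and do not measure how much of another tissue was present. The median share of the root or storage list was lower in sprayed than in untreated leaves of each population. That list was found by the words root-specific, storage protein, prolamin, gliadin or expansin, which do not mark these tissues alone. Its 7 described features took 0.00114 to 0.00364% of counts in sprayed libraries and 0.00311 to 0.00692% in untreated libraries, and none was at 0. The 37 features of dividing cells took 0.0372 to 0.0634% in sprayed and 0.0338 to 0.0791% in untreated libraries, also with none at 0. In S1 this share was 0.0482 to 0.0634% in sprayed and 0.0345 to 0.0442% in untreated libraries, without overlap, while in R1 the medians were 0.0438% in sprayed and 0.0554% in untreated libraries. The 3 features of flower and pollen took at most 0.000453% in sprayed and 0.000228% in untreated libraries, and in S1 0.00027 to 0.000453% in sprayed and 0.000126 to 0.000228% in untreated libraries. The 22 features described by words for other organisms took 0.0108 to 0.0152% in sprayed and 0.0121 to 0.0161% in untreated libraries. The part of these in the spray responses was not tested.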

How the data were processed

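RNA of leaves was sequenced from ribosome-depleted, strand-specific libraries, per the labels' protocols. The submitters' processing notes list R 3.6.1 with DESeq2 1.24.0, the aligner STAR 2.5.2b and the quality tool FastQC 0.11.5, and assembly and counting settings are not given in the sources used here. The deposited table holds raw counts per reading frame, with no normalization, in 32 columns that each match a labelled library. The authors' deposited table gives a log2 fold change and an adjusted p-value for each listed feature and comparison, per the file headers.

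Counts were filtered with filterByExpr by the 8 groups and fitted with edgeR 4.0.16 in R 4.3.3 (TMM factors, 8 group means, robust quasi-likelihood dispersions, 24 residual degrees of freedom). Contrasts weighted populations equally, Benjamini-Hochberg adjustment of p covered 25036 features, and the code was tested on simulated data. Log2 CPM used a prior count of 2. With 4 libraries a group, all p-values describe these 4 populations and the spread between pools of 3 plants. Of 48 pairs of libraries of 1 group, none agreed within sampling noise (chi-square per degree of freedom 12.9 to 113).

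The members and gene lists were chosen with earlier results of these data known. All tested members of the dawn, pseudo-response and evening roles are named, with every member called between populations. Of the photoreceptor and of the CONSTANS or B-box members, 6 each are named. These had the largest absolute value of the mean of the resistant and susceptible log2 fold changes. PHYTOCHROME KINASE SUBSTRATE 1-like, B-box 21, the remaining cryptochrome-1 frame and the genes of the word lists are named outside that rule, after their values were seen. Alternatives were RLE factors, library totals alone, other filters, the 10 most abundant features left out, a replicate block, DESeq2 1.42.0, another prior count and leaving out each library. No sequences were used.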

Additional observations from a re-analysis of the deposited data

Results flagged for a closer look

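In 9 of 176 sets of 4 libraries (22 features in 8 groups), the highest or lowest library stood apart from the other 3 by Dixon's criterion, which chance alone gives in about 1 of 20 sets. PRR95 had 42.7 CPM in the first sprayed S1 library against 12.6 to 16.1 CPM in the other 3. PHYTOCHROME KINASE SUBSTRATE 1-like had 5.01 CPM in the same library against 3.15 to 3.31 CPM, and 8.53 CPM in the third untreated R1 library against 5.10 to 5.48 CPM. B-box 21 had 3.70 CPM in the second untreated R1 library against 2.12 to 2.38 CPM. CONSTANS-LIKE 13 had 9.75 CPM in the first sprayed R1 library against 13.0 to 13.4 CPM, still above every untreated library. Phytochrome C frame p4 had 3.28 CPM in the fourth sprayed S2 library against 2.31 to 2.43 CPM, and CONSTANS-LIKE 9 had 65.3 CPM in the first untreated S2 library against 59.4 to 60.0 CPM. Cryptochrome-1 frame TRINITY_DN58_c0_g2_i1.p1 had 73.8 CPM in the fourth untreated R2 library against 59.2 to 61.6 CPM, and 47.1 CPM in the first untreated R1 library against 61.2 to 63.7 CPM. These values were left in all fits.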

How the results depend on the processing

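Of the 21 features, 17 were called in the susceptible spray response, 11 with library totals alone (3 higher, 8 lower) and 17 or 18 in every other alternative. The totals moved the median of all features to 0.30, and the members' median relative to it was -0.43 under both scalings. Cryptochrome-1 frame TRINITY_DN58_c0_g2_i1.p1 was 0.08 with totals, the only called value to change sign. In the resistant response 6 were called, and 5 to 7 in all alternatives.

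The difference between class responses gave 1 call with totals, 3 with a filter of 1 CPM in 4 libraries and 4 with DESeq2, against 0. Untreated resistant against susceptible gave 1 with totals (CONSTANS-LIKE 8, higher), 1 with the replicate block (LHY, with the gigantea-like and phototropin-like adjusted p at 0.0536 and 0.0527) and 7 with DESeq2, against 3. Sprayed resistant against susceptible gave 1 with DESeq2. Sprayed S2 against S1 gave 2 with the 1 CPM filter, with the 10 most abundant features left out and with DESeq2, against 1, and sprayed R2 against R1 gave 1 with DESeq2, against 0. The cause of these shifts was not tested.

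Leaving out 1 library at a time gave 17 to 18 calls in susceptible and 5 to 7 in resistant plants, 0 to 3 for the difference of responses, 0 to 5 for untreated and 0 to 1 for sprayed resistant against susceptible plants, 0 to 3 for sprayed S2 against S1 and 0 to 1 for sprayed R2 against R1, and 0 in the other 4 comparisons. The highest counts came without the second untreated S2 library (3), the fourth untreated R2 library (5) and the fourth sprayed S1 library (3).

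Replicate numbers did not pair the libraries: deviations of same-numbered sprayed and untreated libraries correlated at -0.084 to 0.088, 0 of 16 pairs were over 0.1, and 1 of 16 sprayed libraries correlated best with its own number. With the replicate block, 18 features were called in susceptible and 5 in resistant plants, where B-box 21 was no longer called. Within-group spread (median SD of log2 CPM 0.205) was 0.206 with a prior count of 0.5 and 0.223 with totals. The lowest member counts were 1 per library for B-box 20, which limits its precision.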
